A study of Mus musculus with 2 samples.

Results

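B cells of the nephritic mouse kidney were taken as every cell that the authors had assigned to their cluster B, 1057 of the 7314 deposited cells. The WT library contributed 969 of them and the *Vsir-/-* library 88. Both libraries came from kidneys of C57BL/6 mice aged 8 weeks with nephrotoxic serum nephritis, a model of glomerular injury in which 200 µg of sheep IgG was given in adjuvant and sheep serum against the glomerulus (2 µl/g by the labels, a different dose in the study's methods) followed after 4 days. *Vsir* encodes VISTA, an immune checkpoint protein, and the *Vsir-/-* mice were the knockout strain of that gene, whereas the WT mice carried no allele named in the labels. The kidneys were dissociated at 37°C in liberase at 0.2 mg/ml over 30 minutes, and cells were profiled by droplet-based 3′ scRNA sequencing, which counts unique molecular identifiers (UMIs), each standing for a single captured transcript. The labels call the WT library a sort of CD45+ cells and the *Vsir-/-* library unselected kidney cells, while the study's methods describe a CD45+ sort. How many mice went into a library, and on which day their kidneys were taken, is not stated for these libraries in the sources read here. The WT library held 5470 cells and 32799550 UMIs, and the *Vsir-/-* library held 1844 cells and 18601189 UMIs. Because each genotype had 1 library, no difference between genotypes was tested, and every interval given is a 95% interval that covers counting error only.

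B cells recognize antigen through a surface immunoglobulin that signals through the CD79A and CD79B chains, and they present antigen to T cells on MHC class II. Naive mature B cells carry IgM and IgD together, with either a kappa or a lambda light chain, and after activation some switch to IgG, IgA, or IgE and become plasma cells that secrete antibody. In immune-mediated glomerular disease, B cells are known as the source of antibody against glomerular or planted antigens and as antigen-presenting cells within the kidney.

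The label was first compared with 4 B cell transcripts, *Cd79a*, *Cd79b*, *Ms4a1* (which encodes the surface protein CD20), and *Igkc* (the kappa light chain constant region). In WT mice the label held. Among 969 WT cells, 3 lacked a *Cd79a* UMI, 14 lacked a *Cd79b* UMI, 129 lacked an *Ms4a1* UMI, and 27 lacked an *Igkc* UMI. All 4 transcripts were found together in 804 WT cells, 3 of them in 157 cells and 2 of them in 8 cells, and no WT cell had fewer.

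In *Vsir-/-* mice about as many cells of the cluster lacked these transcripts as carried them. Of 88 cells, 44 lacked *Cd79a*, 45 lacked *Cd79b*, 51 lacked *Ms4a1*, and 46 lacked *Igkc*. None of the 4 transcripts was found in 42 cells (47.7%, exact Clopper-Pearson interval 37.0% to 58.6%), and a further 3 cells had a UMI of only 1 of them. The remaining 43 cells had at least 3 of the 4, so no *Vsir-/-* cell lay between the groups. Depth differed between these groups, since the 45 marker-poor cells had a median of 1190 UMIs and the 43 marker-rich cells a median of 4423. When every cell was thinned to 500 UMIs, 45 of 88 *Vsir-/-* cells but only 3 of 969 WT cells (0.310%) had none of the 4 transcripts. Cells with at least 2 of the 4 transcripts are called marker-rich and the others marker-poor, a division chosen after these values were seen. Of the 43 marker-rich *Vsir-/-* cells, 2 held more than 100 UMIs of *Jchain*, a gene of antibody-secreting cells, and are described separately as *Jchain*-rich, which leaves 41.

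**Figure D1:**
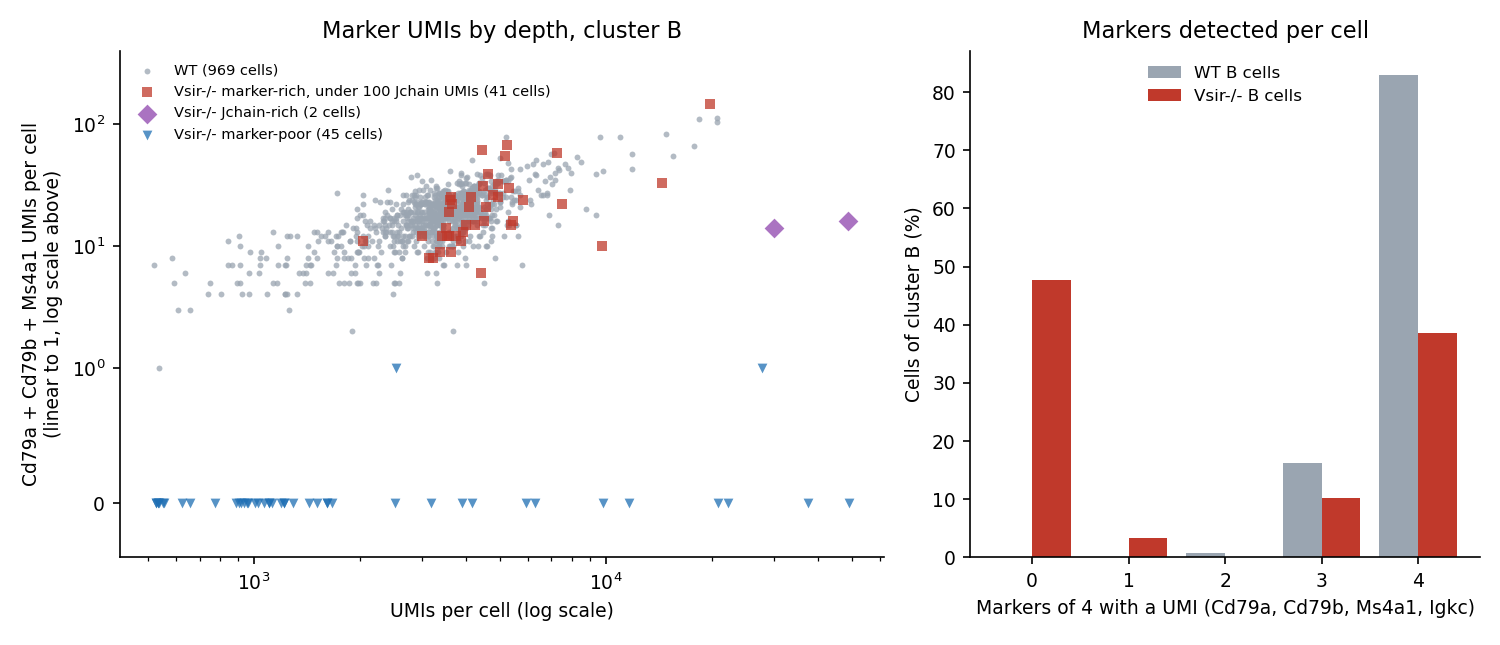
Left, summed UMIs of *Cd79a*, *Cd79b*, and *Ms4a1* in each cell of cluster B (y axis, linear to 1 and log scale above) against the UMIs of that cell (x axis, log scale); each symbol is a cell, and the colors and shapes mark WT cells and 3 sets of *Vsir-/-* cells. Right, percentage of the cells of each library by the number of the 4 markers with a UMI; 42 of 88 *Vsir-/-* cells are at 0 markers and no WT cell is.

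The same transcripts were then counted in neutrophils, which should lack them. In *Vsir-/-* neutrophils, *Igkc* UMIs were found in 7 of 158 cells (4.43%) and *Cd79a* UMIs in 3 cells (1.90%), and *Ms4a1* UMIs in none (0 of 158, for which up to 1.90% is allowed). In WT neutrophils the shares were 16.6% for *Igkc* and 5.15% for *Cd79a* among 524 cells. After thinning to 1000 UMIs, *Cd79a* was found in 93.8% of 947 WT B cells (22 shallower cells left out) and 3.38% of 503 WT neutrophils. The marker-poor *Vsir-/-* cells had a UMI in 1 of 45 cells for each of *Cd79a*, *Cd79b*, and *Igkc* and in 0 of 45 for *Ms4a1*, which their selection fixed. Of B cell genes that the selection did not use, *Ighm* was found in 9 of the 45 cells (20%, with up to 11 UMIs in a cell), *Ebf1* in 3 (with up to 9), and *Pax5* and *Ighd* in none. A count of 0 of 45 allows up to 6.67% of cells with a UMI, and more cells may express the gene without one. In WT B cells thinned to 1000 UMIs, *Pax5* was found in 34.1%, *Ighd* in 67.2%, and *Ebf1* in 82.8%. Thinned to 500 UMIs, the WT shares were 16.9%, 44.7%, and 61.6%. The share of B cells among the 45 cells was not tested. Among *Vsir-/-* neutrophils *Ighm* was found in 23 of 158 cells (14.6%) and *Ebf1* in 6 (3.80%). All 4 transcripts were found together in 17 of the 524 WT neutrophils, and the parts of free RNA and of doublets in the neutrophil shares were not tested.

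Outside cluster B, the libraries differed in how far B cell transcripts reached. At least 2 of *Cd79a*, *Cd79b*, and *Ms4a1* were found in 277 of 4501 WT cells of other clusters (6.15%) and in 0 of 1756 *Vsir-/-* cells. In the WT library *Cd79a* UMIs were found in 67.0% of the 94 cells of the NKT cluster, 38.1% of the 21 plasmacytoid dendritic cells (pDC), 29.3% of the 116 resident (R1) macrophages, 26.6% of the 188 other R2 macrophages, and 23.5% of the 456 M2-like R2 macrophages, against 1.52% to 4.86% of the CD4+ and CD8+ T cell clusters. The share among *Vsir-/-* R1 macrophages was 0.422% of 237 cells, and the *Vsir-/-* library had no cell of the NKT cluster. For *Cd79b* the difference depended on the cluster. Its WT and *Vsir-/-* shares were 41.4% and 27.4% for R1 macrophages, closer than for *Cd79a*, and 43.5% and 39.3% for gdT cells. They were 30.3% and 3.05% for the other R2 macrophages, 30.3% and 8.93% for the M2-like R2 macrophages, and 52.4% and 16.3% for pDC. The *Vsir-/-* share was the higher one for ILC2 (10.5% against 5.06%) and the CD8+ T cell clusters (7.14% against 6.60% and 12% against 10.0%). Doublets were not removed here, and their part in these shares was not tested.

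**Figure D2:**
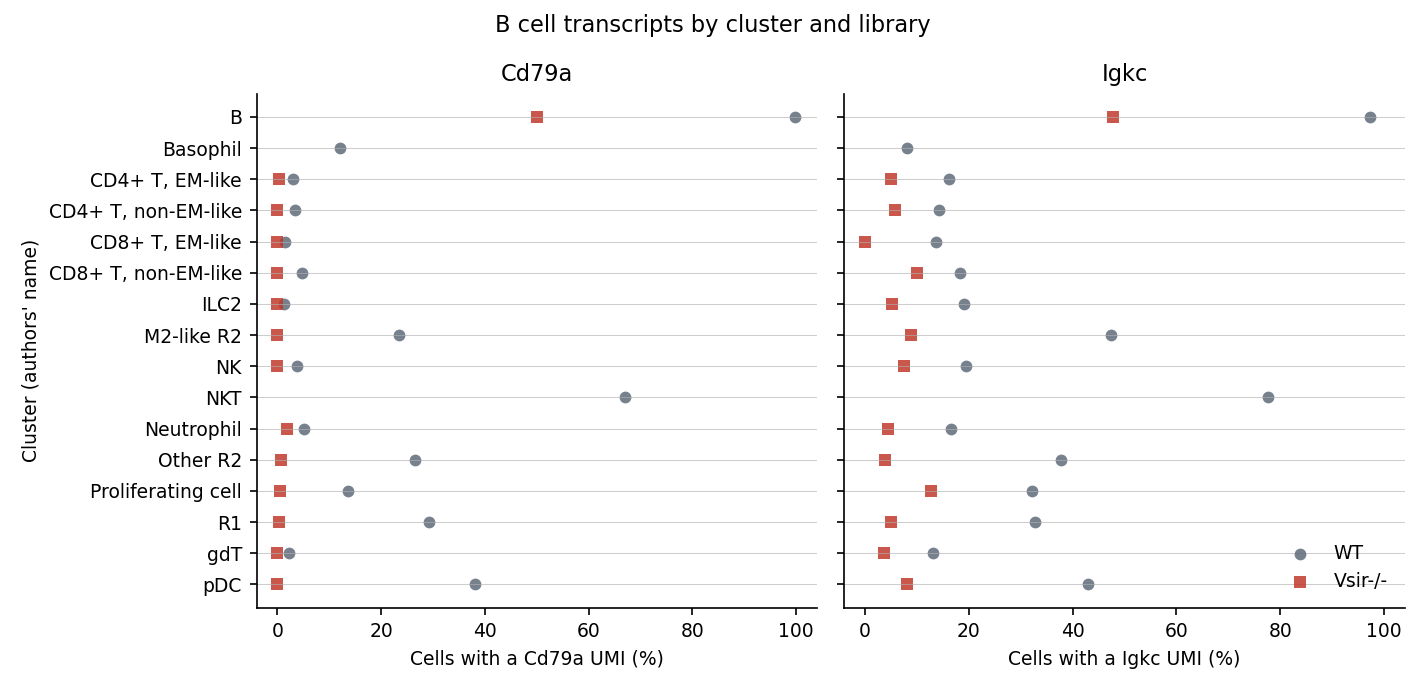
Percentage of cells with a *Cd79a* UMI (left) or an *Igkc* UMI (right) in each cluster with at least 10 cells, by library (circles, WT; squares, *Vsir-/-*). Cluster B stands at 99.7% in WT and 50% in *Vsir-/-* mice for *Cd79a*, and the NKT cluster, which has WT cells only, stands at 67.0%. *Vsir-/-* clusters other than B are not at 0 throughout, with *Igkc* in 12.7% of the proliferating cells.

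The 45 marker-poor *Vsir-/-* cells carried MHC class II transcripts, as the marker-rich cells did. All 45 had a UMI of *Cd74* (the invariant chain of MHC class II), 43 of *H2-Aa*, and 42 of *H2-Ab1*, and their summed *Cd74* level of 10780 CPM (UMIs of a gene per 1000000 UMIs of the cells) was close to the 11832 CPM of the 41 marker-rich *Vsir-/-* cells without the *Jchain*-rich cells. Of the 45 cells, 17 had a UMI of *Ptprc*, which encodes CD45, the protein named in the sort, at a median depth of 1190 UMIs. Thinned to 1000 UMIs, *Ptprc* was found in 53.6% of WT B cells and 44.2% of the 43 marker-rich *Vsir-/-* cells. At 500 UMIs these shares were 29.6% and 23.3%. The marker-poor cells ranged from 528 to 49120 UMIs per cell, 31 were under 2000 UMIs, and 7 cells over 9000 UMIs held 75.2% of their UMIs.

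Their leading genes are given as a description only, since the minimum of 200 UMIs was set in these same cells. By the ratio of CPM to the 41 marker-rich cells, among genes with at least 200 UMIs in marker-poor cells, the 10 genes in the lead were *Lyz2*, *Cst3*, *Clu*, *Emcn*, *Igfbp5*, *Spp1*, *Kap*, *Ifitm3*, *Psap*, and *Txn1*. *Cst3*, which encodes cystatin C and is abundant in dendritic cells, reached 10381 CPM against 332 CPM, and 10 of the 45 cells held at least 50 *Cst3* UMIs, whereas the highest marker-rich cell held 27. In 5 cells at least 5 UMIs of the dendritic cell list (among its genes *Xcr1*, *Clec9a*, and *Batf3*) were found together with 169 to 581 *Cst3* UMIs, and these 5 cells held 63 of the 92 dendritic UMIs of the marker-poor cells. *Emcn*, an endothelial sialomucin, had 239 UMIs, of which 233 lay in 2 cells. For *Clu*, *Igfbp5*, *Kap*, *Lyz2*, *Spp1*, and *Emcn* a single cell held 60.5% or more of the UMIs of all 88 *Vsir-/-* cells, so these values describe single cells.

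Summed over marker lists of other cell types, the marker-poor cells stood above both other sets for 5 of the 8 lists plotted. The endothelial list summed to 3424 CPM (interval 3193 to 3667) in marker-poor cells, 250.2 CPM in the 41 marker-rich cells without the *Jchain*-rich cells, and 145 CPM in WT cells, where *Pecam1*, an adhesion molecule also found on leukocytes, made up 473 of 506 UMIs and 6 of the 8 genes (among them *Cdh5*, *Kdr*, and *Emcn*) were at 0. In both the endothelial and the stromal and glomerular list, 5 of 8 genes had a UMI in each whole library. How genes were listed in each library thus bears on the WT sums of these lists. The dendritic list, led by *Batf3* with 31 UMIs, summed to 386 CPM in marker-poor cells, 4.81 CPM in the 41 cells, and 5.46 CPM in WT cells. The macrophage list summed to 2584 CPM in marker-poor cells, led by *Lyz2*, and to 767 CPM in WT cells, where *Apoe* made up 2352 of 2670 UMIs. A single marker-poor cell held 540 of the 815 endothelial UMIs, and a single one held 254 of the 615 macrophage UMIs. Only 2 and 3 of the 45 cells held at least 20 UMIs of these lists, so these sums rest on few cells. T cell, NK cell, and neutrophil lists were highest in WT cells, at 101, 85.3, and 283 CPM. They summed to 9.62, 4.81, and 67.4 CPM in the 41 *Vsir-/-* cells, and the neutrophil list to 118 CPM in marker-poor cells. In the 41 cells, 8 of 10 T cell genes (among them *Cd3d*, *Cd3e*, and *Trac*) and 6 of 7 NK cell genes were at 0. Of the WT B cells, 141 had a UMI of a T cell receptor complex gene, and 4 of the *Vsir-/-* cells did.

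**Figure D3:**
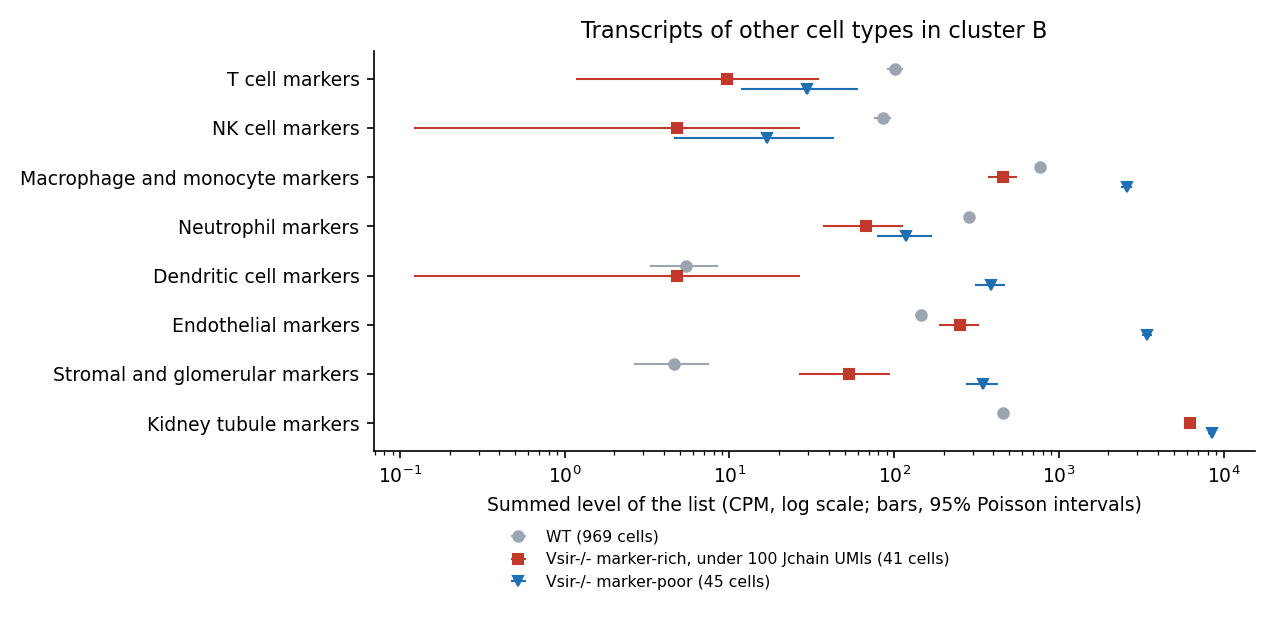
Summed level of marker lists of other cell types (x axis, CPM on a log scale; bars, 95% Poisson intervals) in WT cells, marker-rich *Vsir-/-* cells with under 100 *Jchain* UMIs, and marker-poor *Vsir-/-* cells of cluster B. Kidney tubule transcripts are higher in both *Vsir-/-* sets, at 6255 and 8465 CPM, than in WT cells, at 459 CPM.

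Kidney tubule transcripts were higher in the *Vsir-/-* cells of both the marker-rich and the marker-poor set. Of 36 tubule genes, 26 were listed at 0 in WT B cells, and *Napsa*, a protease gene that B cells also express, made up 1456 of the 1600 UMIs that remained. Without *Napsa*, the list summed to 41.4 CPM in WT cells and 5875 CPM in the 41 marker-rich *Vsir-/-* cells, led by *Gpx3*, which encodes a secreted peroxidase of the proximal tubule, with 302 UMIs of which 75.2% lay in a single cell. *Umod*, the uromodulin gene of the thick ascending limb, was found in 37 of these 41 cells and in 0 of 969 WT cells. It was found likewise in 115 of 158 *Vsir-/-* neutrophils (72.8%) and in 0 of 524 WT neutrophils. In 1 of the 41 marker-rich cells the list took 4.27% of the UMIs, and in the others of the 41 under 1%. That cell held 617 of the 1300 tubule UMIs of the 41 cells, and without it the sum was 3532 CPM with *Napsa* and 3128 CPM without. Of the 36 tubule genes, 24, *Umod* among them, were at 0 in the whole WT library, so that gene listing bears on these sums too. Over the 11 genes other than *Napsa* with a UMI in both whole libraries, the sum was 41.4 CPM in WT B cells and 3161 CPM in the 41 cells, or 1412 CPM without the tubule-rich cell. Free tubule RNA, gene listing, and the difference in sorting that the labels give cannot be told apart from genotype here.

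As a share of all cells, B cells made up 17.7% of the WT library (interval 16.7% to 18.8%) and 4.77% of the *Vsir-/-* library (3.84% to 5.85%). Counting marker-rich cells only, the *Vsir-/-* share was 2.33% (1.69% to 3.13%), and the WT share was unchanged because all 969 cells passed. Among cells with a *Ptprc* UMI, which reduces the part of the kidney's own cells, the shares were 16.2% and 3.68%, and among the lymphoid clusters they were 24.1% and 10.1%. The share was thus lower in the *Vsir-/-* library with each of these denominators. The labels describe different sorting of the libraries, so that genotype and sorting cannot be told apart, and fewer B cells cannot be told apart from more cells of other kinds.

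*Vsir* itself was then counted in WT B cells. It had 67 UMIs, found in 56 of 969 WT B cells (5.78%), a level of 19.2 CPM (interval 14.9 to 24.4), whereas WT R1 macrophages, in which VISTA is abundant, reached 235 CPM and 65.5% of cells. The share in B cells was the lowest of the 16 WT clusters, with 10.1% of the 79 ILC2 next, and no cluster known to lack *Vsir* was at hand, so that the part of free RNA in it was not tested. *Vsir* was at 0 in the 88 *Vsir-/-* cells. With 3 UMIs as the limit for a count of 0, the WT level was 3.36-fold above that limit, or 1.84-fold for the 43 marker-rich cells alone. These folds use the WT level of 19.2 CPM and leave out its interval. In the whole *Vsir-/-* library 8 UMIs were found, against 4278 in the WT library. The genotype labels were thus met, although the removed part of the gene is not stated in the sources read here and 3′ tags may lie outside it.

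Sex-linked transcripts were split between the libraries. WT B cells held 281 UMIs of *Ddx3y*, 271 of *Eif2s3y*, 103 of *Kdm5d*, and 85 of *Uty*, all Y-linked genes, and 0 of *Xist*, the RNA that silences an X chromosome in female cells. *Vsir-/-* B cells held 396 UMIs of *Xist* and 0 of the 4 Y-linked genes. The study's methods describe male mice only, and the whole *Vsir-/-* library went against this in the same way, with 16405 *Xist* UMIs. Sex and genotype cannot be told apart in any comparison given here.

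WT B cells mostly carried IgM and IgD transcripts together. *Ighm* UMIs were found in 955 of 969 WT cells and *Ighd* UMIs in 893, and both were found together in 886 cells (91.4%). The median WT cell held 33 *Igkc*, 10 *Ighm*, and 4 *Ighd* UMIs. Kappa transcripts outnumbered lambda transcripts (*Iglc1*, *Iglc2*, and *Iglc3* summed, because reads of these near-identical genes can be split between them) in most cells, and 83 WT cells (8.57%, interval 6.88% to 10.5%) had more lambda than kappa UMIs. At least 1 lambda UMI was found in 98.0% of WT cells, so that detection alone did not separate the light chains. The share of kappa among light chain UMIs showed a separate group, with 44 WT cells at or under 10% kappa, 6 cells between 20% and 30%, and 350 cells between 80% and 90%.

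Switched isotypes were rare. At least 3 UMIs of an *Ighg*, *Igha*, or *Ighe* gene were found in 12 of 969 WT cells (1.24%, interval 0.641% to 2.15%). By gene, 5 cells passed for *Igha*, 4 for *Ighg2b*, 3 for *Ighg1*, and 1 for *Ighg3*, with 1 cell counted under both *Igha* and *Ighg2b*. The WT cell richest in a switched transcript held 73 *Ighg2b* UMIs, and the next held 71 *Igha* UMIs together with 623 *Igkc* and 16 *Jchain* UMIs. None held over 16 UMIs of *Jchain*, the chain that joins secreted IgM and IgA.

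In the *Vsir-/-* library, 2 cells of cluster B held immunoglobulin transcripts at a level that no WT cell of cluster B reached. The first had 48715 UMIs, among them 20986 of *Igkc*, 5347 of *Ighg1*, and 442 of *Jchain*, and immunoglobulin constant genes and *Jchain* took 55.1% of its UMIs. The second had 30042 UMIs, with 7933 of *Igkc*, 3529 of *Ighg2c*, and 1210 of *Jchain*, and the same genes took 42.4%. Both carried transcripts of antibody-secreting cells. *Xbp1*, a transcription factor of the secretory program, had 91 and 22 UMIs, *Mzb1*, an endoplasmic reticulum chaperone, had 63 and 128, and *Derl3*, which acts in the disposal of misfolded proteins, had 17 and 16. Transcripts of B cell surface proteins were low for the depth of these 2 cells. *Cd79a* had 10 and 7 UMIs, beside a median of 10 per WT cell, and *Ms4a1* had 0 UMIs in each cell. Another *Vsir-/-* cell, one of the 41, held 57 *Ighg1* and 8 *Jchain* UMIs beside 75 *Cd79a* and 36 *Ms4a1* UMIs.

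These 2 cells dominated the immunoglobulin level of the *Vsir-/-* cluster. They held 93.6% of its *Igkc* UMIs, 99.5% of its *Jchain* UMIs, 98.9% of its *Ighg1* UMIs, and 98.0% of its UMIs of *Slpi*, a secreted protease inhibitor. *Igkc* stood at 58896 CPM over all 88 *Vsir-/-* cells and at 9517 CPM over the 41 marker-rich cells with under 100 *Jchain* UMIs, beside 10268 CPM in WT cells. Outside cluster B, 1 WT cell also held over 100 *Jchain* UMIs, at 574, in the cluster of proliferating cells, which held 7481 *Igkc* UMIs in 38 of 118 cells. The frequency of such cells is therefore not compared between the libraries. *Ighg2c* was listed at 0 throughout the WT library, as were *Igha* and *Ighg3* throughout the *Vsir-/-* library, so isotypes cannot be compared between the libraries for these genes.

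The way genes were listed also differed between the libraries. Of 20299 listed genes, 4827 were at 0 in the whole WT library only and 1053 in the whole *Vsir-/-* library only. In 132 cases an older symbol was at 0 in *Vsir-/-* cells and its newer symbol at 0 in WT cells. In B cells, *Aes* had 991 WT and 0 *Vsir-/-* UMIs and its newer symbol *Tle5* 0 and 160. All 54 immunoglobulin variable genes in the files had UMIs in WT cells only. *Nme2*, with 18 WT and 496 *Vsir-/-* UMIs in B cells, differed by 7.52 on the log2 scale in B cells and by a median of 6.79 in the 13 other clusters with at least 10 cells in each library. Gene differences are therefore set beside the median log2 ratio of those 13 clusters, counting clusters with at least 20 UMIs of the gene. For B cell genes that median is no measure of gene listing alone, since B cell transcripts reached further outside cluster B in WT cells. Over the list of the 4 markers it was −4.78 in the other clusters.

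Over the whole cluster, the ratio of CPM in *Vsir-/-* to WT cells was taken for the 4633 genes with at least 100 UMIs over both libraries. Of these, 407 genes (8.78%) were at least 2-fold higher in *Vsir-/-* mice and 806 genes (17.4%) at least 2-fold lower, with a median log2 ratio of −0.20. Measured relative to that median, 546 genes were higher and 601 lower, so the excess of lower genes rests largely on the scaling. Among lists of B cell genes on the lower side were the follicular list (10 of 12 genes lower, none higher, median log2 ratio −1.67), the B lineage transcription factors (10 of 17 lower and 1 higher, median −1.42), the immunoglobulin constant genes (7 of 11 lower and 4 higher, median −1.35), the B cell receptor (BCR) complex and coreceptors (8 of 13 lower and 2 higher, median −1.09), and BCR signaling (8 of 16 lower, none higher, median −0.89). Medians were above 0 for the lists of marginal zone (0.15, 3 of 6 genes lower and 1 higher), immature (0.42, 1 of 3 lower and 1 higher), B1 (0.67, 1 of 3 higher), and germinal center B cells (2.80, 0 of 2 past 2-fold). In the other clusters the medians were −1.69 for the follicular list, −0.87 for the transcription factors, and −5.20 for the immunoglobulin constant genes. They were −0.50 for the BCR complex and coreceptors and −0.38 for BCR signaling. For the marginal zone, immature, B1, germinal center, and plasma cell lists they were −1.01, 1.52, 0.05, 0.42, and −0.14. *Cd79a* stood at 2942 CPM in WT and 1077 CPM in *Vsir-/-* cells, *Ebf1*, a factor that specifies the B lineage, at 1966 and 486 CPM, and *Ighd* at 1197 and 236 CPM. The plasma cell list was on the higher side (6 of 10 higher, 1 lower), as was the respiratory chain (31 of 59 higher, none lower). Marker-poor and *Jchain*-rich cells made up 45.4% and 15.0% of the *Vsir-/-* UMIs, so these values describe a mixture.

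The genes with the most extreme ratios in the whole cluster were as follows. Among genes with at least 200 UMIs over both libraries and at least 4 in each, the 10 highest were *Ighg1*, *Jchain*, *Nme2*, *App*, *Tmem176b*, *Slpi*, *Atp6v0c*, *Tmem176a*, *Atp1b1*, and *Cst3*. *Ighg1*, *Jchain*, and *Slpi* lay in the *Jchain*-rich cells, *App*, *Tmem176a*, *Tmem176b*, and *Cst3* had 153 to 2471 UMIs in marker-poor cells and 16 to 69 in the 41 marker-rich cells, and *Nme2* and *Atp6v0c* had medians of 6.79 and 6.88 on the log2 scale in the other clusters. The 10 lowest were *Slfn8*, *Klhl6*, *Sesn1*, *Ptpn22*, *Ifi214*, *Gm47230*, *Taf6l*, *Lamb3*, *Mirt1*, and *Ripor2*, each with 4 to 32 *Vsir-/-* UMIs. All 10 had a median log2 ratio below 0 in the other clusters, from −3.35 for *Taf6l* to −0.42 for *Klhl6*.

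The comparison was then limited to cells that carried B cell transcripts. It set 41 marker-rich *Vsir-/-* cells with under 100 *Jchain* UMIs (207829 UMIs, median 4255 per cell) against all 969 WT cells (3482389 UMIs, median 3426 per cell), over genes with a UMI in each whole library. Because these cells were chosen by their markers, the levels of the 4 markers are given only as a description. Of 4235 genes with at least 100 UMIs, 128 (3.02%) were at least 2-fold higher in *Vsir-/-* cells and 375 (8.85%) at least 2-fold lower, and the median log2 ratio was −0.08. The *Vsir-/-* sums were small, so that genes with few UMIs have wide intervals, and only counting error is covered.

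The levels of the markers in these cells, which their selection fixed in part, were as follows. *Cd79a* was at 2632 CPM against 2942 CPM in WT cells, *Cd79b* at 1352 against 1625 CPM, and *Ms4a1* at 1039 against 834 CPM. *Cd79a* ranged from 2 to 75 UMIs per cell around a median of 10, and WT cells from 0 to 57 around the same median, so the cells overlapped. Of the 13 genes of the BCR complex and coreceptor list with at least 100 UMIs, 1 was past 2-fold higher and none lower. The higher gene was *Ifitm3*, an interferon-induced membrane protein that also supports BCR signaling, with 41 *Vsir-/-* UMIs of which 73.2% lay in a single cell. *Cd22* and *Siglecg*, inhibitory lectins, had log2 ratios of −0.27 and 0.22 with intervals that held 0. Of the 16 BCR signaling genes, none was past 2-fold higher and 1 was lower, *Btk*, the kinase downstream of the receptor, with 9 *Vsir-/-* UMIs and a log2 ratio of −1.19 (−2.33 to −0.24), which was −0.71 in cells with at least 4000 UMIs. The adaptor *Blnk* stood at 163 CPM in WT and 164 CPM in *Vsir-/-* cells.

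The B lineage transcription factors had the lowest median of the B cell lists with at least 4 genes, −0.48, with 2 of 17 genes past 2-fold lower and none higher, beside −0.87 in the other clusters. *Ebf1* was at 1160 CPM in *Vsir-/-* and 1966 CPM in WT cells (log2 ratio −0.76, interval −0.95 to −0.58), although its median per cell was 6 UMIs in both. *Mef2c* (−0.50), *Pou2f2* (−0.52), and *Pax5*, which maintains B cell identity (−0.54), had intervals below 0 as well. The genes past 2-fold were *Bach2*, a repressor that delays plasma cell differentiation, with 16 *Vsir-/-* UMIs (−1.50, −2.32 to −0.79), and *Lyl1*, with 4 UMIs (−1.53, −3.42 to −0.15). The median log2 ratios of *Ebf1* and *Bach2* in the other clusters were −1.29 and −1.28, to which the limit for B cell genes given above applies. *Irf8* (−0.04), *Spib* (−0.01), and *Pou2af1* (0.10) had intervals that held 0.

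Follicular transcripts had a median of −0.38, beside −1.69 in the other clusters. Of 12 follicular genes, 1 was past 2-fold lower and none higher. That gene was *Ighd*, at 597 CPM in *Vsir-/-* and 1197 CPM in WT cells (−1.0, −1.27 to −0.75), which was found in 32 of 41 and 893 of 969 cells. Without the cell rich in tubule transcripts its ratio was −0.90, short of 2-fold. Averaged over all draws of 1000 UMIs per cell, *Ighd* would be found in 45% of the 41 *Vsir-/-* cells and 67.2% of 947 WT cells. *Ighm*, spliced from the same transcript, was at 2589 and 3047 CPM (−0.24, −0.36 to −0.11). *Fcer2a*, the low-affinity IgE receptor of follicular B cells, was at 337 and 456 CPM, and *Cr2*, the complement receptor CD21, at 67.4 and 99.4 CPM with an interval that held 0. The marginal zone list had 1 of 5 genes past 2-fold lower and none higher. It was *Notch2*, the receptor that directs the marginal zone fate, with 10 *Vsir-/-* UMIs (−1.90, −2.96 to −1.01), beside a median of −1.01 over 13 other clusters.

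Light chains and isotypes were counted in the same cells. Of 41 cells, 4 (9.76%, interval 2.72% to 23.1%) had more lambda than kappa UMIs, against 8.57% of WT cells. *Ighm* and *Ighd* were found together in 78.0% of the 41 cells (interval 62.4% to 89.4%) and in 91.4% of WT cells (89.5% to 93.1%). Of 8 immunoglobulin constant genes, 1 was past 2-fold higher, *Ighg1*, with 98.3% of its 58 *Vsir-/-* UMIs in 1 cell, and 2 were lower, *Ighd* (above) and *Ighg2b*, with 0 *Vsir-/-* and 110 WT UMIs. Of these 110 UMIs, 73 lay in a single WT cell, without which *Ighg2b* falls under the minimum of 100 UMIs. *Iglc1* was at 678 and 642 CPM and *Iglc2* at 1092 and 1410 CPM in *Vsir-/-* and WT cells. The plasma cell list had 0 of 6 genes past 2-fold in either direction and a median of −0.19, where over all 88 cells its median was 1.76. *Xbp1*, at 6 UMIs and 28.9 CPM, stood beside 35.6 CPM in WT cells. The lists of B1 and atypical, immature, and germinal center B cells had 2, 2, and 1 genes with at least 100 UMIs, and none of them passed 2-fold.

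MHC class II transcripts had ratios below 0 in most of the list, by less than 2-fold. No gene of the 14 with at least 100 UMIs passed 2-fold in either direction, but 15 of 16 genes with at least 20 UMIs had a log2 ratio below 0, where 4270 of all 8373 such genes had one above 0, and the median was −0.35, against 0.21 as the median of the same genes in the other clusters. *Cd74* was at 11832 CPM in *Vsir-/-* and 16259 CPM in WT cells (−0.46, −0.52 to −0.40), with medians of 56 and 57 UMIs per cell in cells whose median depth was 4255 and 3426 UMIs. *H2-Aa* (−0.30), *H2-Eb1* (−0.41), and *H2-Ab1* (−0.28), the peptide-binding chains, had ratios of like size, and their intervals lay below 0. *H2-Ob*, a B cell modulator of peptide loading, was lower by −0.80 (−1.15 to −0.46), beside −2.91 in the other clusters. *Cd86*, a costimulatory ligand, was the exception, at 101 and 59.7 CPM (0.76, 0.04 to 1.41, from 21 *Vsir-/-* UMIs). The difference from the other clusters was not tested.

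**Figure D4:**
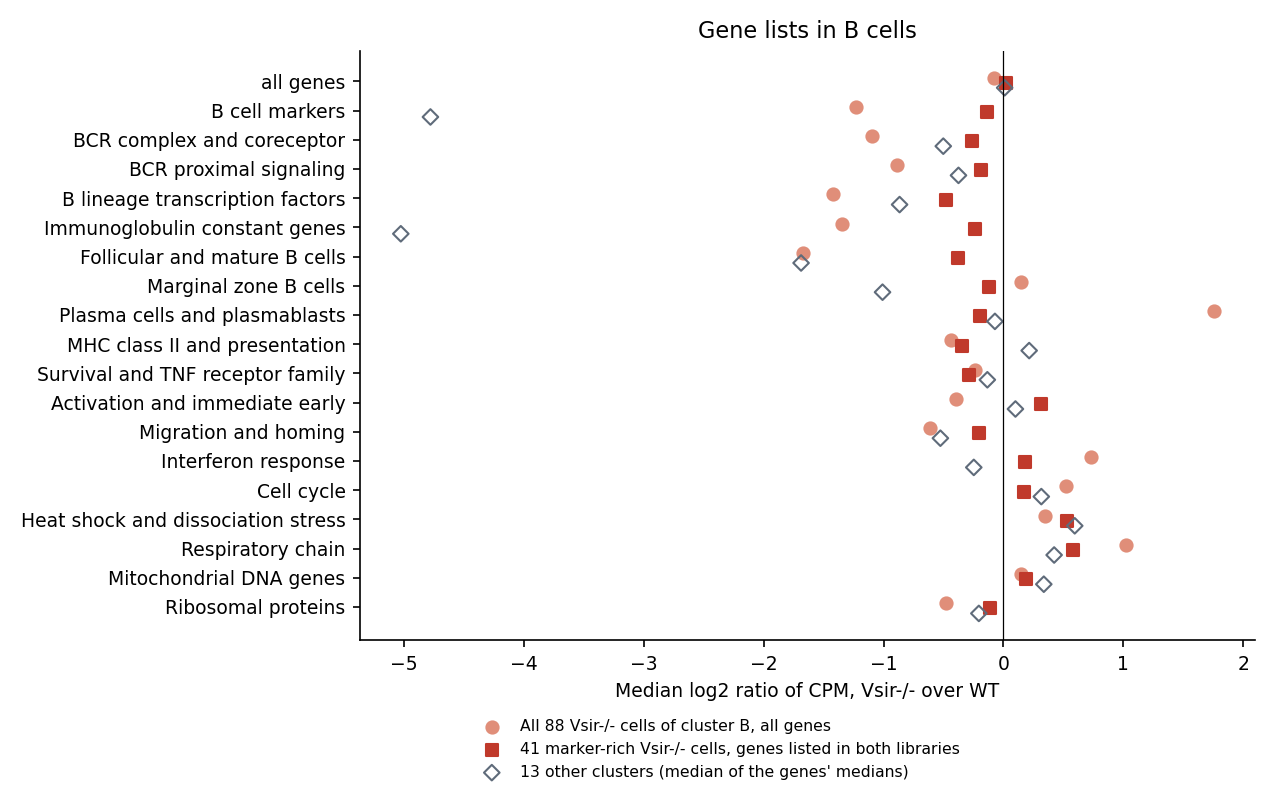
Median log2 ratio of CPM (x axis, *Vsir-/-* over WT) of gene lists with at least 4 genes of 100 UMIs or more, for all 88 *Vsir-/-* cells (circles), the 41 marker-rich cells (squares), and the other clusters (diamonds, median over genes of the median over 13 clusters). The plasma cell list moves from 1.76 to −0.19 and the follicular list from −1.67 to −0.38 when the marker-poor and *Jchain*-rich cells are left out, and the respiratory chain stays above 0.

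Transcripts of the respiratory chain were mostly on the higher side. In the 41 cells, 54 of 58 genes had a log2 ratio above 0 (4270 of 8373 over all genes with at least 20 UMIs), the median was 0.58, and 7 of 58 genes were past 2-fold higher and none lower. *Cox6c*, a subunit of cytochrome oxidase, was at 722 CPM in *Vsir-/-* and 314 CPM in WT cells (1.20, 0.94 to 1.45), and *Atp5g3*, a subunit of the ATP synthase, at 284 and 108 CPM (1.39, 0.97 to 1.79). The other 5 past 2-fold were *Atp5g1*, *Ndufb8*, *Ndufc1*, *Ndufa12*, and *Sdhc*. Without the 1 cell rich in tubule transcripts, *Atp5g1* (0.94), *Ndufb8* (0.81), *Ndufc1* (0.60), and *Ndufa12* (0.85) were no longer past 2-fold. The same genes had a median of 0.42 in the other clusters, and in B cells the median was 0.44 without that cell. Tubule cells are rich in these transcripts too, and the part of free tubule RNA in the B cell values was not tested. Genes encoded by mitochondrial DNA had a median of 0.19, with *mt-Nd6* as the 1 gene of 13 past 2-fold.

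The heat shock list had 3 of 12 genes past 2-fold higher and none lower, with a median of 0.53 beside 0.59 in the other clusters. *Hspa1a* was at 515 and 183 CPM (1.49, 1.18 to 1.79), *Hspa1b* at 635 and 266 CPM, and *Hspd1*, a mitochondrial chaperone, at 265 and 127 CPM. None of 20 genes of the activation list passed 2-fold, although *Fos* (0.82), *Jun* (0.61), *Klf6* (0.51), and *Dusp2* (0.46) had intervals above 0 and *Cd69* (−0.55) and *Btg2* (−0.94) had intervals below 0. *Fos* and *Jun* were higher in the other clusters as well, by medians of 0.78 and 1.02. Interferon response genes were mixed, with 3 of 15 past 2-fold higher (*Irf1* at 1.35, *Bst2* at 1.21, and *Socs3* at 1.07, or 0.62 in cells with at least 4000 UMIs) and 2 lower (*Ifi213* at −1.33 and *Irf7* at −1.03, the latter with an interval that held 0). For *Irf1* and *Bst2* the medians in the other clusters were 0.20 and 0.11.

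Genes of migration and homing were also mixed, with 2 of 17 past 2-fold higher and 3 lower. *Rgs1* and *Rgs2*, which dampen chemokine receptor signals, were higher, at 1.52 (0.89 to 2.09) and 1.01 (0.64 to 1.37), but in cells with at least 4000 UMIs the ratio of *Rgs1* was 0.44. *Cxcr4*, the receptor for the bone marrow chemokine CXCL12, was at 144 CPM in *Vsir-/-* and 335 CPM in WT cells (−1.21, −1.79 to −0.69). Averaged over all draws of 1000 UMIs per cell, *Cxcr4* would be found in 15.3% of the 41 cells and 27.9% of 947 WT cells. *Selplg* and *Itgb2*, with 5 and 4 *Vsir-/-* UMIs, were the other genes past 2-fold lower. *Klf2*, which keeps lymphocytes in circulation, was higher (0.58, 0.45 to 0.71) where the other clusters had a median of −0.29, and *Ccr7*, the lymph node homing receptor, was at 500 and 480 CPM.

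Survival genes had 1 of 13 past 2-fold higher and 2 lower. *Bcl2l11*, the proapoptotic factor BIM, was the higher gene, with 14 *Vsir-/-* UMIs (1.33, 0.41 to 2.15), and *Bcl2a1b* and *Traf2* were lower, with 5 and 2 UMIs and intervals that held 0. *Tnfrsf13c*, the BAFF receptor on which mature B cells depend, was at 197 and 181 CPM (0.12, −0.37 to 0.58), and *Mcl1* at 520 and 467 CPM. Of the cytokine list only *Ltb* and *Tgfb1* reached 100 UMIs, and both were lower without passing 2-fold, *Ltb* at 515 and 884 CPM (−0.78, −1.07 to −0.50). Cell cycle genes had 0 of 6 past 2-fold, and *Mki67*, a marker of proliferating cells, was found in 4 of 41 and 9 of 969 cells, from 6 and 13 UMIs, where 7 of 524 WT and 3 of 158 *Vsir-/-* neutrophils held one, as did 4 of the 45 marker-poor cells.

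**Figure D5:**
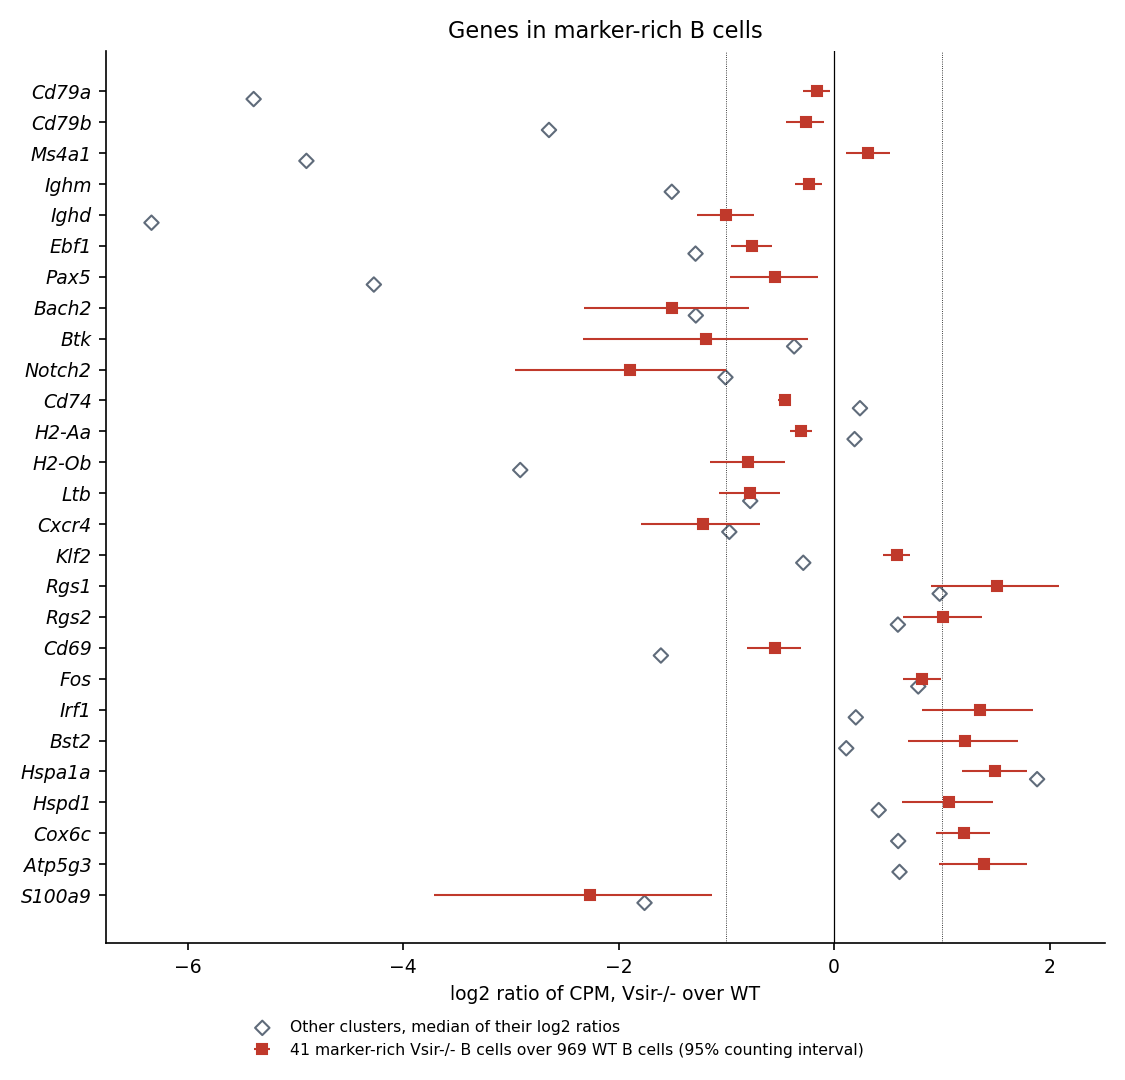
Log2 ratio of CPM (x axis) of genes of the main lists in 41 marker-rich *Vsir-/-* B cells over 969 WT B cells (squares; bars, exact 95% counting intervals; dotted lines, 2-fold) and the median log2 ratio in the other clusters (diamonds). B cell receptor transcripts lie near 0, *Notch2*, *Bach2*, *Cxcr4*, and *Ighd* on the lower side, and *Irf1*, *Bst2*, and the chain subunits on the higher side.

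Among genes with at least 200 UMIs, at least 4 in each set of cells, and a UMI in each whole library, the 10 highest in the 41 cells included *Rpl13a*, *Dbi*, *Prdx5*, *Gm42418*, *AY036118*, *Pabpn1*, *Srsf7*, *Golgb1*, and *Hspa1a*. *Rpl13a* was higher by 2.51 in B cells and by a median of 2.35 in the other clusters, the only 1 of 68 ribosomal protein genes past 2-fold. The 10 lowest were *Kdm6b*, *Ccl5*, *S100a9*, *Klhl6*, *Hypk*, *Gimap9*, *Hist1h2ap*, *Kmt2d*, *Mylip*, and *Slfn8*, each with 4 to 6 *Vsir-/-* UMIs. *Ccl5* and *S100a9* are transcripts of T and NK cells and of neutrophils, and in the WT B cells they stood at 130 and 139 CPM. *Kdm6b*, a histone demethylase, was at 24.1 and 175 CPM (−2.86, −4.49 to −1.63), beside a median of −0.42 in the other clusters.

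WT B cells were told from the other WT clusters by the following genes. By the ratio of CPM in cluster B to the median of the other WT clusters, among genes outside the immunoglobulin constant list with at least 200 UMIs, the 10 highest were *Fcrla*, *Chst3*, *Rasgrp3*, *Ms4a1*, *Ly6d*, *Vpreb3*, *Ebf1*, *Scd1*, *Cr2*, and *Cd79a*. This is a description of the clustering, which used these genes. *Fcrla*, an intracellular Fc receptor-like protein of B cells, was at 331 CPM, 415 times that median, and *Ly6d*, a surface protein of B lineage cells, was at 1423 CPM in WT cells and 1419 CPM in the 41 *Vsir-/-* cells. Leaving out *Ms4a1* and *Cd79a*, whose levels the selection fixed, the marker-poor *Vsir-/-* cells were at or below 54.6 CPM for 7 of the other 8 genes, with 0 UMIs of *Ly6d*, *Vpreb3*, *Cr2*, and *Chst3*. *Rasgrp3*, which passes BCR signals to Ras, was at 113 CPM in marker-poor cells and 86.6 CPM in the 41 cells, and endothelial cells express it as well. Transcripts of other B cell states were rare in WT cells, with *Cd93*, a marker of immature B cells, in 21 of 969 cells, *Cd5*, a marker of B1 cells, in 9, and *Sdc1*, which encodes the plasma cell protein CD138, in 50. Among WT neutrophils the shares were 3.05% for *Cd93*, which myeloid cells can express, 2.86% for *Cd5*, and 0.763% for *Sdc1*, beside 2.17%, 0.929%, and 5.16% in WT B cells, at median depths of 3565 and 3426 UMIs. The share for *Cd5* was thus not above that of cells that should lack it.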

How the data were processed

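Reads had been processed by the authors. Per the labels' processing notes and the study's methods, Cell Ranger 3.1.0, R 4.0.3 and Seurat 3.2.3 were used, the notes name the build mm9, and genes found in at least 5 cells and cells with at least 200 UMIs and at most 10% mitochondrial UMIs were kept. The deposited expression values are raw UMI counts. For each cell the authors also deposited its library, its cluster, and the percent of UMIs from mitochondrial genes. Removal of doublets is not described in the sources read here, and none were removed.

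Members and gene lists were chosen with earlier results of these data known. UMIs were summed over the B cells of a library, and CPM were taken against all their UMIs. Poisson, Clopper-Pearson, and exact conditional intervals were computed at the 95% level. A sum of 0 was set to 3 UMIs for list medians (genes with at least 20 UMIs over both libraries). Being past 2-fold means a ratio of at least 2 or at most 0.5 among genes with at least 100 UMIs. Cells were thinned without replacement. Genes named are *Vsir*, the 4 markers, from each B cell list the 4 most abundant genes and any past 2-fold over the whole cluster, from other lists the 3 most abundant, and the extremes stated in the text. Others, among them all genes of the 41-cell and marker-poor comparisons, were named after their values were seen. The ratio of CPM and its interval were tested on simulated counts of genes with at least 200 WT UMIs, at the depth of the whole cluster. Thinning, list medians, and the 41-cell comparison were not tested in that way. Python 3.11.15, numpy 2.4.6, scipy 1.17.1, and pandas 2.3.3 were used. Some genes that these rules name are not reported here.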

Additional observations from a re-analysis of the deposited data

How the results depend on the processing

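Thinning to 500 UMIs, the limit to genes listed in both libraries, and all alternatives on the 41 marker-rich cells were chosen after the data were seen. The WT share of B cells, 17.7%, was 14.3% with at most 5% mitochondrial UMIs, 45.4% without cells holding a T cell receptor complex UMI, 16.2% of cells with a *Ptprc* UMI, and 24.1% of lymphoid clusters, and the *Vsir-/-* share, 4.77%, was 3.18%, 7.01%, 3.68%, and 10.1%, with 3.44% at 2000 UMIs per cell and 2.33% with 2 markers. The share with a *Cd79a* UMI was 93.8% and 77.0% in WT cells thinned to 1000 and 500 UMIs, and in *Vsir-/-* cells 61.4% with at most 5% mitochondrial UMIs, 77.2% at 2000 UMIs, 64.6% without cells over 1% tubule UMIs, and 33.0% thinned to 500. The 407 genes past 2-fold higher over the whole cluster became 201 with at most 5% mitochondrial UMIs, 176 with 2 markers, 1440 and 96 with minimums of 20 and 400 UMIs, and 131 and 128 in the 41 marker-rich cells over all genes and over genes listed in both libraries. The 806 lower became 732 with 2 markers, 1518 and 296 with these minimums, and 426 and 375 in the 41 cells. The median of the transcription factors, −1.42, became −1.57 (mitochondrial limit), −0.89 (2 markers), −1.0 (tubule limit), −1.31 (CPM without immunoglobulin and mitochondrial DNA genes), −1.04 (mean over cells), and −0.48 (41 cells, both ways), and that of the respiratory chain, 1.02, became 0.79, 0.70, 0.75, 1.13, 1.20, 0.59, and 0.58 in the same order. In the 41 cells, the 128 higher and 375 lower genes became 17 and 50 with a minimum of 400 UMIs and 64 and 176 in cells with at least 4000 UMIs, and the respiratory chain median, 0.58, became 0.44 without the cell over 1% tubule UMIs.

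Medians over the whole cluster that changed sign in the 41 cells were those of the activation list (−0.40 to 0.31), the marginal zone list (0.15 to −0.12), the germinal center list (2.80 to −0.15), the plasma cell list (1.76 to −0.19), the NK cell list (−2.08 to 0.23, set by genes at the limit of 3 UMIs), and the macrophage list (4.44 to −1.0, and −1.27 with 2 markers), where the marker-poor or *Jchain*-rich cells were left out by construction. The sign was kept in 505 of the 533 list medians recomputed under the alternatives. By size, 45 recomputed headline values moved, 63 stayed the same, and 0 reversed. Of the other recomputed values, 239 moved, 289 stayed the same, and 9 reversed. Only a list median of at least 1 in size on the log2 scale could be called reversed, when its sign changed. Shares, gene counts, and smaller medians could not be, so the count of 0 was largely set by this rule. Averaging over all draws of 1000 UMIs was also chosen after the data were seen. No paired analysis was possible because each genotype had 1 library. That single library per genotype, with the sort, sex, and gene listing differing between libraries, limits every comparison, and the 41 cells with 207829 UMIs limit single genes.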

Other observations

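B cell transcripts outside cluster B differed between the libraries in kind as well as in number. In the WT library, at least 2 of the 4 markers were found in 71.3% of the 94 cells of the NKT cluster, beside 38.1% of the 21 pDC, 29.6% of the 456 M2-like R2, 29.3% of the 116 R1, and 27.1% of the 188 other R2 macrophages. The cells of the NKT cluster held a median of 2746 UMIs. The *Vsir-/-* library had no cell in that cluster. Over all clusters but B, cells with at least 2 of the 4 markers were 8.91% of those in the WT library and 0.797% of those in the *Vsir-/-* library.

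All 54 variable genes in the files came from the WT library, with 470 UMIs in its B cells, so that clonal relations were not examined. Between the libraries, 5 cell barcodes were shared, and 1 B cell of each library carried such a barcode.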
